A study of Mus musculus with 3 samples.

Results

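Fibroblast growth factors (FGFs) and their receptors were followed in the skin of interleukin-10 (IL-10) knockout mice. The set held 10 genes, the ligands Fgf1, Fgf2, Fgf5, Fgf7, Fgf10 and Fgf18 and the receptors Fgfr1, Fgfr2, Fgfr3 and Fgfr4. Every probe set that the array annotation gives to 1 of these genes alone was used, which gave 23 of 45037 probe sets, 10 for the ligands and 13 for the receptors.

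Back skin of 3 groups of mice was compared, each as RNA pooled from its mice on 1 Affymetrix mouse expression array. WT mice (C57BL/6J, n = 5) and KO mice (Il10 knockout, n = 7) ate an AIN-93-based diet. KOE mice (Il10 knockout, n = 6) ate that diet with 8% eggshell membrane powder (pESM) in place of part of its casein and corn starch. Feeding began at 4 weeks of age and lasted 28 weeks, and the adipose layer under the dermis was removed from the skin before RNA extraction. The KO mice were bred from a line made on another background and crossed to C57BL/6J, and the mice that entered each pool are not given in the sources used here. A pool on 1 array carries no replicate, so no difference below has a test, and each describes these 3 pools and not the spread between mice.

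FGFs are secreted proteins that bind receptor tyrosine kinases together with heparan sulfate and signal through the Ras, Raf and ERK kinases. In skin, FGF7 and FGF10 come from dermal cells and act on an epithelial splice form of FGFR2 in keratinocytes. FGF5 is made in the growing hair follicle and helps to end hair growth, while FGF18 is made in the resting follicle and holds it at rest.

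Promoter sequence is shown for the 4 ligands with an entry in the promoter table whose signal differed by 1.5-fold or more between KO and WT or between KOE and KO. Each run is the 250 bases before the annotated start of the gene, read 5′ to 3′ on the strand of the gene, from RefSeq on build GRCm38.p6. They are Fgf5 at chr5:98253934-98254183 (plus strand), Fgf18 at chr11:33147401-33147650 (minus strand), Fgf7 at chr2:126034408-126034657 (plus strand) and Fgf10 at chr13:118714449-118714698 (plus strand). Capitals mark the matches found among 4 motifs that were searched on both strands, the GC box GGGCGG (which reads CCGCCC on the other strand), the CCAAT box, the TATA box TATAAA and the AP-1 site TGANTCA.
Fgf5: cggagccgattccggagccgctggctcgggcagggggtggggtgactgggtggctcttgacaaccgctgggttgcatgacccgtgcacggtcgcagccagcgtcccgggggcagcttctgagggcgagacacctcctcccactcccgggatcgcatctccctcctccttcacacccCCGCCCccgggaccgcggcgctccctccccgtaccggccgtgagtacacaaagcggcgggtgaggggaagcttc
Fgf18: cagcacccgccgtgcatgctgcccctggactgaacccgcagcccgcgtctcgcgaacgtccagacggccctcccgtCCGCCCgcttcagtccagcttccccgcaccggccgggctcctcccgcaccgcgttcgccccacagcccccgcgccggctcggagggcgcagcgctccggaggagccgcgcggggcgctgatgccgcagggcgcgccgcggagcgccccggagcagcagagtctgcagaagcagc
Fgf7: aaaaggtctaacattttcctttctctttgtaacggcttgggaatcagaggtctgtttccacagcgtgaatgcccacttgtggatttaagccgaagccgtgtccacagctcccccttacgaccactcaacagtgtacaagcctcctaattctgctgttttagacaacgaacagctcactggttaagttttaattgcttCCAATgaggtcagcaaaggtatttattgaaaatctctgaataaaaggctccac
Fgf10: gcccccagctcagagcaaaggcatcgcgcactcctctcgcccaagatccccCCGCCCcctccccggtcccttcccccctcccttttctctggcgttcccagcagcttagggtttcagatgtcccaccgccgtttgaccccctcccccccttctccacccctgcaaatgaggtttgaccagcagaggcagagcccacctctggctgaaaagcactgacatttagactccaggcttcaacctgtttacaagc
Fgf5, Fgf18 and Fgf10 each held 1 GC box on the minus strand, a match that 32.7% of 32851 promoters of this length had. In Fgf5 it lay 74 to 69 bases before the start, in Fgf18 174 to 169 bases and in Fgf10 199 to 194 bases. Fgf7 held 1 CCAAT match 53 to 49 bases before the start, as did 33.8% of all promoters somewhere in the window. TATAAA, present in 12.4%, and TGANTCA, present in 6.75%, had no match in the 4 runs, which says only that these letters are not in the window. The 3 ligands that share the GC box did not share a direction, since Fgf5 was lower and Fgf18 higher in KO than in WT. The genes themselves lie at chr5:98254184-98277033 (Fgf5), chr11:33116970-33147400 (Fgf18), chr2:126034658-126091185 (Fgf7) and chr13:118714699-118792573 (Fgf10).

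Values are signals of Microarray Analysis Suite 5 on a linear scale, set by the authors to the same 2% trimmed mean of 500 on each array. A probe set was taken as higher or lower only if the 2 signals differed by at least 1.5-fold and at least 1 of them reached 40. The limits of 1.5 and 40 are those of the study's methods, which do not say on which array, and accepting either array was a choice made here. Probe sets of different genes bind with different strength, so signals are compared between arrays and never between probe sets. Where a gene has several probe sets they read the same RNA pool, and their agreement is the closest available guide to measurement error. It leaves out any error that a whole array shares, such as in its scaling. Over 6055 genes with several probe sets, the log2 differences of 1 gene spread with a pooled SD of 0.35 in KO vs. WT and 0.28 in KOE vs. KO. For probe sets with mean signals of 40 to 200 these SDs were 0.49 and 0.42, and for those at 200 or more they were 0.26 and 0.20.

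Defining markers of skin were present on all 3 arrays, with Krt10 of the epidermis at 29571, 33694 and 36463 and Dcn of the dermis at 32743, 32111 and 30539 in WT, KO and KOE. Il10 itself read 17.0, 680 and 401 in the same order, the opposite of what a lost transcript gives. The sources used here do not say where its probe set lies relative to the altered part of the gene, so it checks nothing, and WT, KO and KOE below stand for the arrays with those labels. The cell make-up of the pools also differed. The 14 markers of the growing hair follicle that were measured summed to 171121 in WT, 1558 in KO and 1512 in KOE. All 14 were lower in KO than in WT. Skeletal muscle markers summed to 35596, 11897 and 50181, and adipocyte markers to 26541, 9429 and 17625. The other 6 lists had sums that differed by less than 2-fold between any 2 arrays, as the plot of marker sums shows. They are the bulge and outer root sheath (72377, 68886 and 74269), the dermal papilla (9354, 7464 and 9413), keratinocytes (127318, 150567 and 156386), fibroblasts (147020, 115609 and 139309), endothelium (3613, 5310 and 5944), and macrophages and mast cells (15685, 19069 and 12068). A sum rests mostly on its strongest genes, and single markers of these lists did pass 1.5-fold. In KOE vs. WT, 8 of 10 endothelial markers were higher and 0 lower. No share over all genes was computed for KOE vs. WT to read this count against. The median log2 difference of the endothelial markers was 0.70, beside 0.05 for all genes that reached the signal limit. In KOE vs. KO, 7 of 12 macrophage and mast cell markers were lower and 0 higher, beside 5.33% and 10.9% of all such genes. Of 12 papilla markers, 2 were higher and 3 lower in KO vs. WT, beside 10.9% and 14.5% of all such genes. Among them Corin read 348 in WT and 2.24 in KO. In pooled tissue RNA, fewer cells of a type and less RNA per cell cannot be told apart.

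In KO compared with WT, 3 of the 10 genes were higher and 1 was lower, each read at its strongest probe set. Fgf7 and Fgf18, both secreted ligands, and the receptor Fgfr3 were higher, and the hair cycle ligand Fgf5 was lower. Among all genes that reached 40, 10.9% were higher and 14.5% lower in this comparison. By probe set, 4 of 23 were higher, beside 10.6% of all that reached 40, and 3 were lower, beside 20.2%. Of the 23 probe sets, 22 reached 40 in WT or KO, too few to set these counts apart from the shares over all probe sets. In KOE compared with KO, Fgf1, Fgf5 and Fgf10 were higher and no gene was lower, with a background of 10.9% higher and 5.33% lower. By probe set these were 5 higher, beside 14.5% of all, and 0 lower, beside 5.93%, with 20 that reached 40. Both comparisons use the KO array, so a signal that is off on that array moves them in opposite directions.

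**Figure D1:**
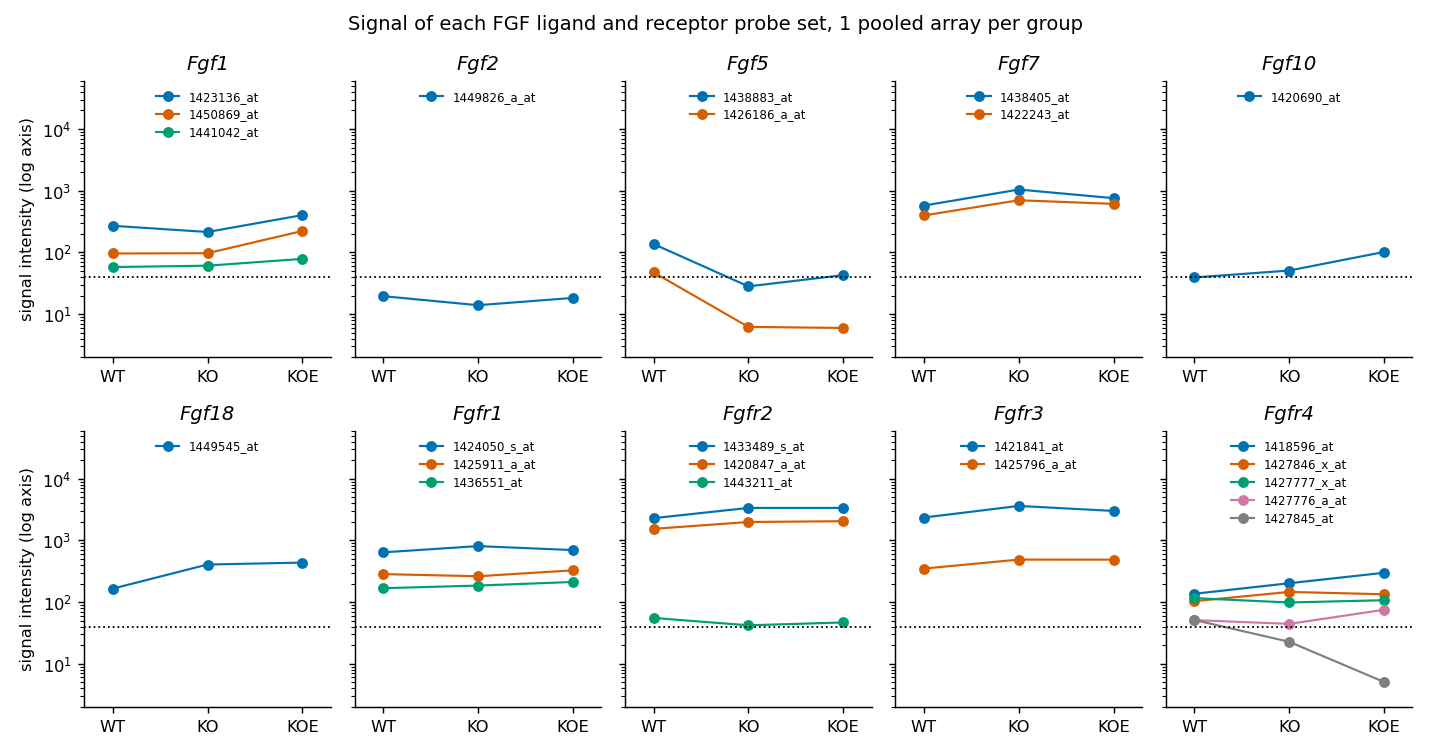
Signal (log axis) of each of the 23 probe sets of the FGF ligands and receptors in the WT, KO and KOE arrays, 1 array of pooled RNA per group, with a line at the limit of 40. Fgf5 is highest in WT, Fgf18 is lowest in WT, and the Fgf2 probe set lies under 40 on all 3 arrays.

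Of the ligands, Fgf5 differed most between KO and WT. Its stronger probe set, 1438883_at, gave 137 in WT, 28.2 in KO and 42.8 in KOE. WT stood far above both knockout pools, and KO was under the limit of 40. The WT signal was 4.86 times that of KO, and 3.42 times the limit of 40 to which KO can be raised. The second probe set, 1426186_a_at, gave 47.5, 6.20 and 5.96, so that it too passed the limit in WT alone. It was close to the limit even there, and its WT signal was 1.19 times the limit. KOE also lay under WT, at 0.313 of its signal at the stronger probe set. Between KOE and KO the stronger probe set was 1.52 times higher, just past the limit of 1.5. With signals under 40 raised to 40 that ratio was 1.07, and the second probe set did not follow. The log2 difference between KO and WT was −2.28 and stayed between −2.61 and −1.38 under the alternatives tried. All 14 hair follicle markers were lower in the same arrays, with a median log2 difference of −7.28. The strongest of them, the root sheath keratin Krt25, gave 31928 in WT, 51.5 in KO and 21.4 in KOE. In KOE vs. KO, 5 of the 14 were lower and 0 higher, beside 5.33% and 10.9% of all genes that reached 40. These readings lay near the floor, with 2 of the 14 under 40 in KO and 7 in KOE. The median log2 difference of the 12 that reached 40 was −0.015. With signals under 40 raised to 40, Krt25 in KO was 1.29 times KOE. The part of the hair follicle in the Fgf5 difference was not tested.

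Fgf18, the ligand of the resting follicle, went the other way. Its probe set, 1449545_at, gave 165 in WT, 407 in KO and 437 in KOE. Both knockout pools stood clearly above WT and close to each other. KO was 2.46 times WT and KOE 2.65 times WT, while KOE over KO was 1.08. The log2 difference between KO and WT was 1.30 and stayed between 1.12 and 1.57 under the alternatives. It was the one member probe set that was higher by 2-fold or more in KO than in WT. The gene has a single probe set, so no second reading of the pools exists.

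Fgf7, also known as keratinocyte growth factor, was read by a pair of probe sets that moved alike. Probe set 1438405_at gave 574 in WT, 1045 in KO and 758 in KOE. Probe set 1422243_at gave 397 in WT, 701 in KO and 612 in KOE. On both, KO was highest, WT lowest and KOE between them. KO was 1.82 and 1.76 times WT, log2 differences of 0.86 and 0.82 beside the SD of 0.26 for probe sets of this strength. That SD leaves out any error shared by a whole array. KOE was 0.725 and 0.873 of KO, neither past the limit. Compared with WT, KOE was 1.54 times higher at 1422243_at and 1.32 times at 1438405_at, so the probe sets fall on different sides of the limit. When the arrays were set to a common median instead, KOE was lower than KO at 1438405_at, by 0.62 on the log2 scale, which is past the limit.

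Fgf10, which drives the growth of epithelial buds and acts through the same receptor as FGF7, was read by the weak probe set 1420690_at. It gave 39.2 in WT, 50.8 in KO and 102 in KOE. KOE stood apart, and WT and KO lay near the limit of 40. KOE was 2.00 times KO and 2.59 times WT. KO was 1.30 times WT, not past the limit, but it passed under the 3 other scalings of the arrays, at log2 differences of 0.64 (common median), 0.59 (quantile) and 0.59 (cyclic loess).

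Fgf1, a ligand that binds all the FGF receptors, had 3 probe sets. The strongest, 1423136_at, gave 270.2 in WT, 214 in KO and 402 in KOE. The next, 1450869_at, gave 96.0, 97.0 and 223, and the weakest, 1441042_at, gave 57.9, 60.9 and 78.5. KOE was the highest array on all 3, and WT and KO lay close together on the weaker ones. KOE was 1.88, 2.29 and 1.29 times KO, of which the first and the second passed the limit. The log2 differences of the 3 probe sets averaged 0.82 with an SD of 0.42. Compared with WT, KOE was 2.32 times higher at 1450869_at and 1.49 and 1.36 times at the others, which did not pass. Under the 3 other scalings 1423136_at passed as well, at log2 differences of 0.68 (common median), 0.69 (quantile) and 0.63 (cyclic loess). The study lists Fgf1 from these same arrays among its genes of interest, so its direction here is not independent evidence. Between KOE and KO, 13 of 14 skeletal muscle markers and 7 of 10 adipocyte markers were also higher, beside 10.9% of all genes, and none of either was lower. Between KO and WT, 12 of the 14 muscle markers were lower and 1 higher, and 7 of the 10 adipocyte markers were lower and 0 higher. In that comparison KO was 0.793, 1.01 and 1.05 times WT for Fgf1 and 1.30 times WT for Fgf10. The part of muscle and adipocytes in the Fgf1 and Fgf10 differences was not tested.

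Fgf2, a growth factor for fibroblasts and vessel cells, stayed under the limit on every array. Probe set 1449826_a_at gave 19.5 in WT, 13.9 in KO and 18.3 in KOE. No ratio is given for it.

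**Figure D2:**
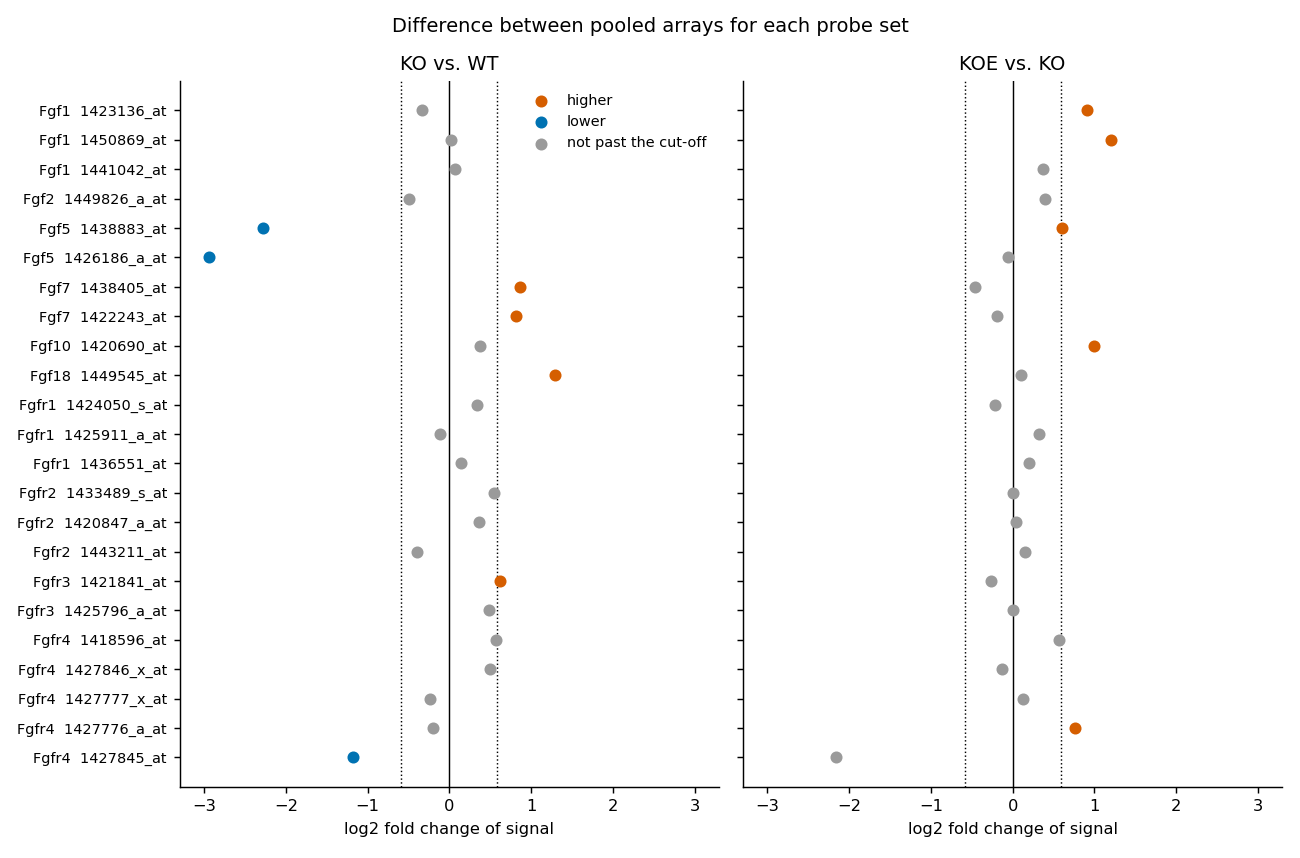
Log2 ratio of the signals of KO over WT (left) and KOE over KO (right) for each of the 23 probe sets, with dotted lines at a 1.5-fold difference. Coloured points are past 1.5-fold with a signal of at least 40, and show Fgf5 lower and Fgf7 and Fgf18 higher in KO, and Fgf1 and Fgf10 higher in KOE.

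Of the 13 probe sets of the 4 receptors, 11 did not pass the limit between KO and WT. Fgfr3, which is strong in keratinocytes, was the receptor past the limit at its strongest probe set. Probe set 1421841_at gave 2350.3 in WT, 3624 in KO and 3006 in KOE. KO was the highest array, 1.54 times WT, and KOE lay between. The second probe set, 1425796_a_at, gave 349.7, 489 and 488, with KO 1.40 times WT and not past the limit. Under quantile and cyclic loess scaling the first probe set did not pass either. KOE was 0.829 of KO at 1421841_at and equal to KO at 1425796_a_at, at a ratio of 1.00.

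Fgfr2, the receptor of FGF7 and FGF10 in keratinocytes, came just short of the limit. Probe set 1433489_s_at gave 2294 in WT, 3364 in KO and 3364 in KOE. Probe set 1420847_a_at gave 1541, 1989 and 2049.6. On both, the knockout pools lay above WT and next to each other. KO was 1.47 and 1.29 times WT, and KOE was 1.00 and 1.03 times KO. With a common median both were higher in KO than in WT, the first at a log2 difference of 0.82, but the first passed under neither of the other scalings. The weakest probe set, 1443211_at, gave 55.4, 42.0 and 46.8, with WT highest. The receptor's splice forms could not be told apart, since the sources used here do not give the bases each probe set reads.

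Fgfr1, a receptor of many cell types of the dermis, did not pass the limit in any comparison at any of its 3 probe sets on the deposited scale. Probe set 1424050_s_at gave 640.1 in WT, 809 in KO and 697 in KOE. Probe set 1425911_a_at gave 284, 263 and 327, and 1436551_at gave 168, 185 and 212. The order of the arrays differed from probe set to probe set, and the log2 differences between KO and WT ran from −0.12 to 0.34. With a common median 1424050_s_at was higher in KO, at 0.61.

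Fgfr4, a receptor best known from liver, had 5 probe sets that did not agree. The strongest, 1418596_at, gave 136 in WT, 202 in KO and 299 in KOE. KOE was 2.19 times WT and each step was 1.48 times, just short of the limit. Probe set 1427846_x_at gave 104, 146 and 134, and 1427777_x_at gave 116, 98.6 and 107. The weaker 1427776_a_at gave 51.0, 44.4 and 75.0, where KOE was 1.69 times KO. The last, 1427845_at, gave 51.3 in WT, 22.7 in KO and 5.08 in KOE. It reached 40 in WT alone and was lower in both knockout pools. Between KO and WT, 3 of the 5 log2 differences were below 0, in a range of −1.17 to 0.57 with an SD of 0.70. As a mean of all 5, KOE was lower than WT by a log2 difference of −0.28, the reverse of the strongest probe set. No direction is given for this gene.

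In KOE compared with WT, 5 member probe sets were higher, beside 13.2% of all that reached 40, and 3 were lower, beside 14.5%. Fgf18, Fgf10 and Fgfr4 were the genes that were higher at the strongest probe set, and Fgf5 was lower. The probe sets of Fgfr4 ran from −3.34 to 1.13 on the log2 scale here, so it is given no direction. The share over all genes was not computed for this comparison. The median log2 difference of the member probe sets was 0.24 in KO vs. WT, with 14 above 0 and 8 below, while that of all probe sets was −0.05. In KOE vs. KO it was 0.14, with 14 above and 6 below, beside 0.05 for all. In KOE vs. WT it was 0.41, with 17 above and 5 below, beside 0.02 for all. Of all probe sets that reached 40, 45.4% were above 0 in KO vs. WT, 56.9% in KOE vs. KO and 52.0% in KOE vs. WT. The member probe sets read 9 genes, some of them several times, so they are not independent readings. Read by gene, the median of the members that reached 40 was 0.55 in KO vs. WT and 0.10 in KOE vs. KO, and the latter was −0.06 with the arrays set to a common median.

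How the arrays are put on 1 scale bears on these directions. Setting the arrays to a common median raised KO against WT by 0.27 on the log2 scale for every probe set and moved KOE against KO by −0.16. Of the probe sets past the limit between KO and WT, 34.3% were higher on the deposited scale, 63.8% with a common median, 51.5% after quantile and 46.6% after cyclic loess scaling. For KOE vs. KO the same shares were 70.9%, 51.3%, 50.0% and 49.6%, and for KOE vs. WT they were 47.7%, 60.2%, 51.7% and 45.1%. With a common median 11 member probe sets were higher in KO than in WT in place of 4, and those added were 1 of Fgf10, 1 of Fgfr1, 2 of Fgfr2, 1 of Fgfr3 and 2 of Fgfr4. Fgf5 stayed lower and Fgf7 and Fgf18 higher in KO vs. WT under all 3 scalings, and Fgf1 and Fgf10 stayed higher in KOE vs. KO.

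**Figure D3:**
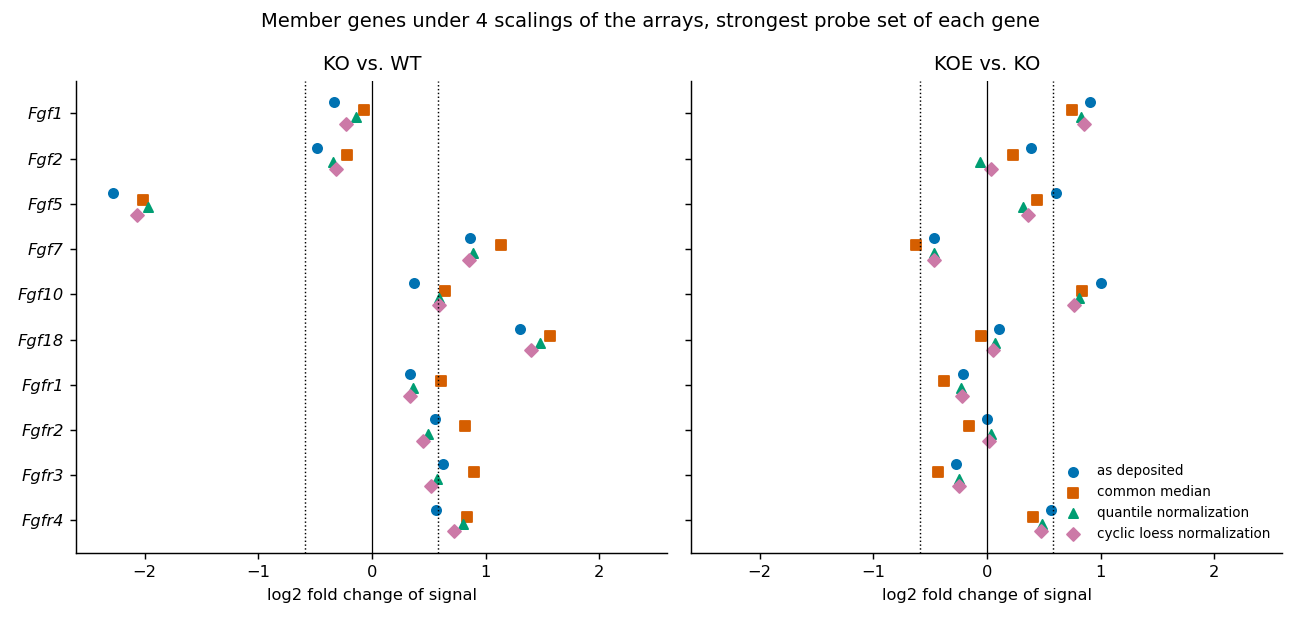
Log2 ratio of KO over WT and of KOE over KO for each gene at its strongest probe set, on the deposited scale and with the arrays set to a common median, quantile normalized or cyclic loess normalized. Fgf5 stays lowest and Fgf18 highest in KO vs. WT on every scale, while Fgfr3 lies close to the 1.5-fold line except with a common median.

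The other secreted FGFs were mostly too weak to read. Only 4 of 12 reached 40 in KO or WT, of which 2 were higher and 1 lower. In KOE vs. KO, 8 of 12 reached 40, with 2 higher and 2 lower. Over all genes that reached 40, beside which this and the following lists are to be read, 10.9% were higher and 14.5% lower in KO vs. WT, with a median log2 difference of 0.01. In KOE vs. KO these were 10.9% and 5.33%, with a median of 0.02. Fgf22, a ligand made in the inner root sheath of the hair follicle, gave 306 in WT, 202 in KO and 183 in KOE. It was lower in KO by a WT to KO ratio of 1.52, but none of the 12 was lower under any of the 3 other scalings. The number higher in KO rose from 2 to 6 with a common median and to 6 after quantile scaling, and was 3 after cyclic loess scaling. Fgf9, a signal to mesenchyme, gave 24.5, 85.2 and 50.5, and the bone hormone Fgf23 gave 11.2, 56.3 and 32.8. Fgf4, an embryonic ligand, gave 96.1, 123 and 127 and did not pass. Fgf6, a ligand of skeletal muscle, gave 4.61, 38.1 and 80.3, and Fgf8, another embryonic ligand, gave 3.54, 17.2 and 40.3. Both reached 40 in KOE alone, Fgf8 barely. The FGF homologous factors stay inside the cell and bind sodium channels instead of the FGF receptors. Of 4, 1 was higher and 1 lower in KO than in WT, and 1, Fgf12, was higher in KOE than in KO. Fgf13 read 324 in the WT pool, 532 in the KO pool and 471 in the KOE pool, with KO 1.64 times WT. Fgf12 gave 51.1, 29.8 and 58.1, with KO lowest, though it was not lower in KO vs. WT under the 3 other scalings. Fgf11 gave 132, 180 and 225 and passed neither in KO vs. WT nor in KOE vs. KO.

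Proteins that carry FGFs or sit beside the receptors differed in both directions, with a median log2 difference of 0.04 in KO vs. WT. Of 12 genes, 3 were higher and 1 lower in KO than in WT, and 1 was higher and 1 lower in KOE vs. KO. The shares over all genes in KO vs. WT were 10.9% and 14.5%. Fgfbp1, which frees FGFs from the matrix, gave 4556 in WT, 10049 in KO and 8002 in KOE. KO was 2.21 times WT, with KOE between. Cdh2, a cadherin that binds FGFR1, gave 212, 373 and 469, with KO 1.76 times WT. Nrp1, a co-receptor of several growth factors, gave 755, 1307 and 833, so that it was higher in KO than in both other pools. Flrt1, a membrane protein that can bind FGF receptors, gave 258, 150.0 and 250.4. It was lowest in KO, though it was no longer lower in KO with a common median or after quantile scaling. Flrt3 gave 2773, 2853 and 2179 and did not pass. Klb and Kl, the co-receptors of the hormone-like FGFs, were under 40 on every array.

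Heparan sulfate proteoglycans and the enzymes that build and trim their chains mostly did not pass the limit. Of 22 measured, 0 were higher and 2 lower in KO than in WT, and 3 were higher and 0 lower in KOE against KO. Gpc3, a glypican, gave 570.4 in WT, 335 in KO and 340.1 in KOE. Gpc1 gave 1035, 609 and 1082, with KO lowest and KOE 1.78 times KO. The study lists Gpc1 from these same arrays, so its direction is not independent evidence. Sdc3 gave 402, 423 and 710.0, higher in KOE by 1.68-fold. With a common median neither glypican was past the limit in KO vs. WT and 2 other genes of the list were higher. The strongest members, Sdc1 at 11754, 9458 and 13052 and Sdc4 at 6378, 9046 and 9994, did not pass.

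Adaptors and kinases that act under the receptors seldom passed it, with 1 higher and 1 lower of 20 in KO vs. WT and none past the limit in KOE vs. KO, where the median log2 difference was 0.03. Braf, a Raf kinase, gave 1538 in WT, 832 in KO and 765 in KOE, a WT to KO ratio of 1.85. All 9 of its probe sets were lower in KO vs. WT. Of them 1, 1447941_x_at at 261, 59.8 and 121, was 2.02 times higher in KOE than in KO. Frs3, an adaptor docked on the receptors, gave 68.9, 112 and 92.4. Akt1, a kinase of the parallel PI3K branch, gave 1403, 1522 and 1979 at its strongest probe set, with KOE 1.30 times KO. Of its 4 probe sets 1 passed, 1440950_at at 129, 76.3 and 161, which was lower in KO vs. WT and 2.12 times higher in KOE vs. KO. The study lists Braf at 2.02 and Akt1 at 2.12 in KOE vs. KO from these same arrays, the values of these weaker probe sets. The counts of the list thus hold for the strongest probe set of each gene.

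Feedback inhibitors, some of which FGF signaling itself induces, split between genes. Of 14 measured, 2 were higher and 1 lower in KO than in WT. Spry1 gave 816 in WT, 1817 in KO and 1491 in KOE. Spry2 gave 496, 990 and 730. Both Sprouty genes were higher in KO, at 2.23 and 1.99 times WT, with KOE between WT and KO. Dusp4, a phosphatase of ERK, gave 365, 196 and 162, lower in KO. Dusp6, another ERK phosphatase, gave 2837, 2643 and 1938, and Rasa1 gave 2699, 2589 and 2578, without passing. Between KOE and KO none of the list passed, and the median log2 difference was −0.28. With a common median 6 were higher and 1 lower in KO, and in KOE 3 fell short of KO by 1.5-fold or more.

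Of 13 transcription factors and early response genes that ERK activates, 5 were higher and 1 was lower in KO than in WT, beside 10.9% and 14.5% of all genes. Egr1 gave 8252 in WT, 12591 in KO and 11744 in KOE, a KO to WT ratio of 1.53. Fos gave 4756, 8737 and 4876, and Fosl1 gave 36.1, 117 and 48.0. Fos and Fosl1 were highest in KO, and they were the 2 of the list that were lower in KOE vs. KO, at 0.558 and 0.408 of the KO signal. Ier2 at 2610, 4239 and 3268 and Ier3 at 2796, 4374 and 3341 were higher in KO as well. These genes respond to many growth factors besides FGFs. Etv4, a factor more closely tied to FGF receptors, gave 67.5, 30.0 and 29.0 and was lower in KO. Etv5 gave 441, 467 and 581 and did not pass. In place of 5, 8 of the 13 were higher with a common median, 5 after quantile and 3 after cyclic loess scaling, with 1 lower each time.

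The genes whose pattern over the 3 arrays was closest to that of a member were found by the largest gap between their log2 differences, KO vs. WT and KOE vs. KO, and those of the member. For Fgf5 they were Hoxb5os (0.14), the Wnt effector Lef1 (0.15) and the kinase gene Hunk (0.15), and 5 of 10199 genes lay within 0.25. This match uses the Fgf5 signal of 28.2 in KO, which is under the limit of 40, so it is loose. Lef1 is on the list of growing hair follicle markers and fell least of the 14, at a log2 difference of −2.38. For Fgf18 they were the proton channel gene Otop3 (0.07), the acetyltransferase gene Nat8l (0.10) and the cytokine gene Il7 (0.11), with 27 of 10198 genes within 0.25. For Fgf1 they were Pdzk1 (0.01), Tlcd3b (0.06) and Sdk2 (0.07), with 54 of 10198 genes within 0.25. With 3 arrays many genes share a pattern, and these counts do not rank the patterns.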

How the data were processed

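The authors reverse-transcribed 250 ng of pooled RNA per group, hybridised it to 1 Affymetrix mouse expression array per group and deposited Microarray Analysis Suite 5 signal intensity values, computed in R and scaled to a 2% trimmed mean of 500 per array. The arrays had median signals of 116 (WT), 96.3 (KO) and 108 (KOE), and 68.3%, 65.3% and 69.5% of probe sets reached 40. The number of arrays limits the precision, and no replicate exists.

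Of 45101 probe sets, 64 controls were left out. Gene names came from the platform annotation, updated through gene identifiers, and 34945 probe sets with 1 symbol gave 18193 genes. A gene was read at its strongest probe set by mean over the arrays. Differences counted at 1.5-fold or more with a signal of at least 40 in 1 of the 2 arrays, and no p-value was computed. Named genes are the members, the 2 strongest and the 2 with the largest difference in each comparison of each pathway list, and fewer of each cell type list. Il10, Ier2, Ier3, Dusp4, Etv5, Klb and Kl were added after their values were seen, as were the list results under other scalings and the weaker probe sets of Akt1 and Braf. The members and the 16 lists (7 of pathway genes, 9 of cell types) were chosen with earlier results of these data known. Of 106 pathway genes, 97 had a probe set named for them alone. The scripts were tested on simulated data. Python 3.11.15 (numpy 2.4.6, pandas 2.3.3) and R 4.3.3 (limma 3.58.1) were used.

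Alternatives were signals under 40 set to 40, 40 added to every signal, a common median, quantile or cyclic loess scaling, the mean of all probe sets, both arrays at 40 or more, limits of 20 and 100, a 2-fold limit, and leaving out probe sets that may read other genes.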

Additional observations from a re-analysis of the deposited data

How the results depend on the processing

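Of 60 recomputed counts of member probe sets, 44 stayed within 1.5 times the reported count and 16 did not. Where signals under 40 were set to 40, 1 was lower in KO vs. WT and 1 in KOE vs. WT, in place of 3 each. With both arrays required to reach 40 these were 0 and 1, and with a limit of 100 they were 1 and 1. The 5 that were higher in KOE vs. KO became 3 with 40 added to every signal, with quantile scaling, with cyclic loess scaling and with the limit of 100, and 2 at a 2-fold limit. At that limit 1 (Fgf18) was higher in KO vs. WT in place of 4. With a common median 11 were higher in KO vs. WT, 9 in KOE vs. WT in place of 5, and 1 was lower in KOE vs. KO. That last count was also 1 with a limit of 20, both in place of 0. Leaving out probe sets that may read other genes left all 6 counts the same. This was fixed beforehand, since none of the counted probe sets was of that kind. These 6 are among the 44. Of 180 recomputed gene values, 1 turned the direction of a gene that was past the limit on the deposited scale. It was Fgfr4 in KOE vs. WT, at −0.28 as the mean of its probe sets. Only genes past the limit could count here. Raising signals to 40 or adding 40 keeps their order, so many of the values could not turn. In comparisons not past the limit, Fgf2, Fgf18, Fgfr1, Fgfr2 and Fgfr4 changed sign under some alternative.

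Signals near 40 limit what can be read of Fgf2, Fgf5 in the knockout pools, Fgf10 in WT and the weaker probe sets of Fgfr4. No paired analysis was possible because each group has 1 array.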
